A study of Mus musculus with 9 samples.

Results

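The antiviral interferon-stimulated genes are a set of 39 mouse genes chosen by name, out of 49671 gene rows in the count table. All 39 were found by matching the table's Ensembl identifiers to gene symbols, and 34 had enough counts to be tested. They were measured by RNA sequencing in sorted skin cells, with 5 wt/wt and 4 ko/ko libraries, where the genotype is that of Flg, the gene for the cornified-layer protein filaggrin. Cells of both genotypes went through the same sort for absence of CD45, the leukocyte surface protein, and presence of CD49f, the integrin alpha-6 chain of basal keratinocytes. Neither group is labelled with a treatment, and the sources used here give no strain, age or sex of the mice and no design of the Flg allele. The question posed was how keratinocyte expression changes when filaggrin is lacking.

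Type I and type III interferons are secreted proteins that cells make after sensing viral nucleic acid. Their receptors activate the kinases JAK1 and TYK2, which phosphorylate signal transducers such as STAT2. With IRF9 these form a complex that binds a DNA motif called the interferon-stimulated response element (ISRE) and switches on the genes described here. Type II interferon acts mainly through another motif, the gamma-activated site (GAS). Keratinocytes, fibroblasts, endothelial cells and leukocytes of the skin all carry this response, and many cells keep a low level of these transcripts without infection.

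Totals were 15601859 to 23200440 counts per library, and 1 count equalled 0.0453 to 0.0578 CPM (counts scaled to a common library size) after TMM adjustment of library size. Flg had 0 to 6 counts in every library, too few to check the genotype labels. The fibroblast gene Dcn, at 10868 to 21870 CPM, exceeded the basal keratin Krt14, at 858 to 1834 CPM, in all 9 libraries, which goes against the epidermal label of the sort. Ptprc, which encodes CD45, was present at 0.0508 to 0.864 CPM in wt/wt and 0.910 to 7.17 CPM in ko/ko. In such bulk samples, fewer cells of a type and less RNA per cell cannot be told apart.

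None of the 34 tested members differed between genotypes after adjustment (0 called by edgeR's quasi-likelihood test over all genes, smallest adjusted p = 0.152, for Trim25). Over all 18435 genes that test called 0.00542%. Members tended to positive values: 25 had a positive and 9 a negative log2 fold change of ko/ko over wt/wt. Their median was 0.23, against -0.03 over all tested genes, of which 47.4% were positive. With no low-count filter the median was 0.17 over the 39 members, against 0.14 over all genes. At an unadjusted p under 0.05, 7 members were higher in ko/ko and 0 lower. That is 20.6% of the tested members, against 8.86% of all tested genes higher and 6.42% lower. The 7 were Trim25, Parp14, Oas1b, Samd9l, Oasl2, Rtp4 and Ifit1, with log2 fold changes from 0.58 to 0.99. Without ko/ko replicate 2 their number was 4, and without the 3 libraries rich in reads of the predicted gene Gm10800 it was 3 (wt/wt replicate 1 and ko/ko replicates 1 and 4 left out). For these smaller sets of libraries the share of all genes at an unadjusted p under 0.05 was not computed. DESeq2 called 1 member, Trim25 (adjusted p = 0.0188), against 3.63% of all genes (2.53% higher and 1.11% lower). Limma voom with sample quality weights called 2, Trim25 (adjusted p = 0.0179) and Parp14 (adjusted p = 0.0214), against 9.77% of all genes (6.60% higher and 3.17% lower).

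**Figure D1:**
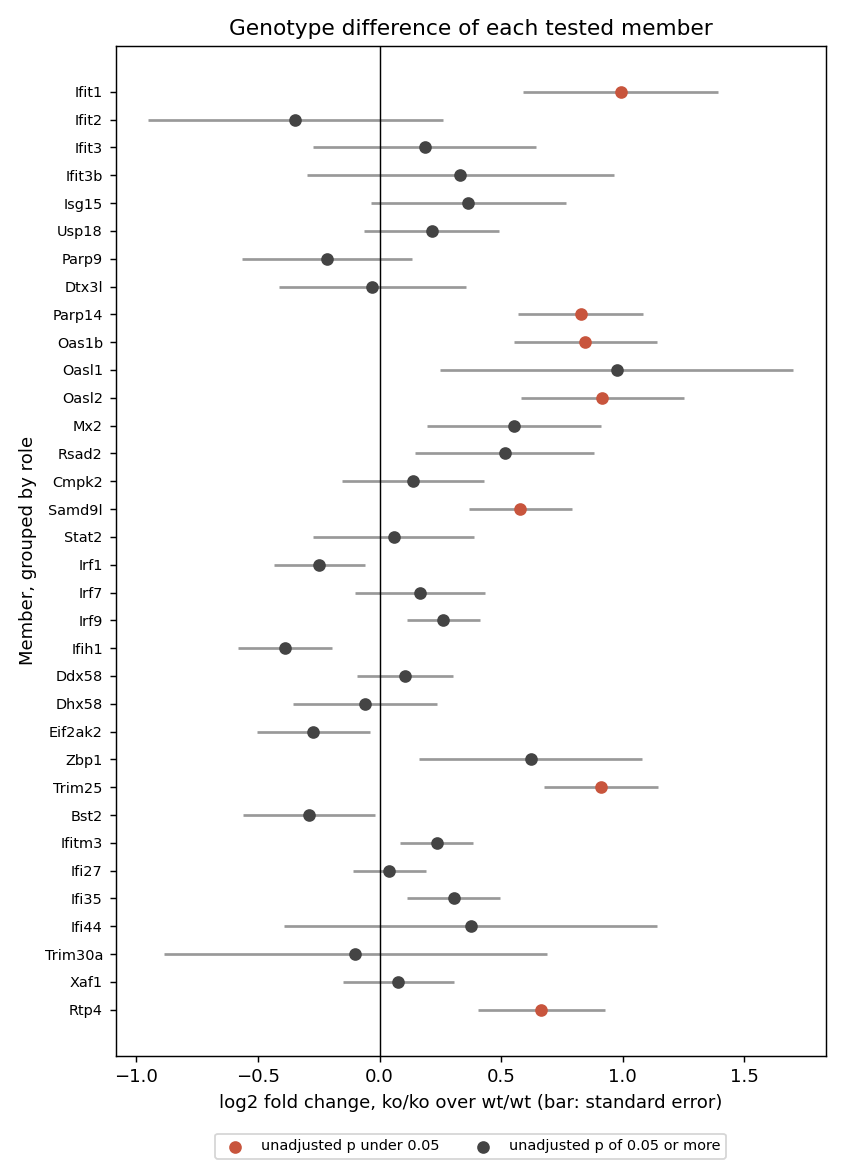
Log2 fold change of ko/ko over wt/wt (x axis) for each of the 34 tested members, grouped by role, with bars for the standard error. The 7 members with an unadjusted p under 0.05, in red, all lie between 0.58 and 0.99, and the other 27 lie between -0.39 and 0.98.

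Levels were uneven within the set. Per kilobase of exon, the mean over the 9 libraries was highest for Ifitm3, at 582 CPM per kb, followed by Irf1 at 335 and Ifi27 at 72.9 CPM per kb. The median of the tested members was 2.52 CPM per kb, and the lowest was 0.213 CPM per kb, for Zbp1. By this mean over both genotypes, 27 of the 34 tested members were under 5 CPM per kb. They came from every role save the membrane genes, Bst2 (5.04 CPM per kb) and Ifitm3. The share of all tested genes under that level was not computed. Replicates of a genotype spread widely around such means. The median coefficient of variation over members was 25.0% in wt/wt and 33.2% in ko/ko, against 26.5% and 25.0% over all tested genes.

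The DNA before several of these genes carries the motif of the interferon pathway. The sequences below, all with that motif, belong to close copies or members of 1 gene cluster compared further on, and to Isg15. RefSeq promoter windows (GRCm38.p6, 250 bases before to 50 after the start) were matched for 28 of the 39 members, with 32 windows. The ISRE letters, GAAA, then any 2 bases, then GAAA, searched on both strands with overlapping matches counted, were found in windows of 15 of the 28 genes. By window that was 16 of 32, against 3.44% of all 32851 windows. Ifit2, in the cluster of Ifit1 and compared with it further on, had no ISRE letters in its windows and is not printed. The GAS letters TTCNNNGAA, which read the same on both strands, were found in 7 of the 32 windows, against 8.30% of all windows. Of the 7 members with an unadjusted p under 0.05, a window was matched for Trim25, Samd9l, Oasl2 and Ifit1, and Ifit1 was the one with ISRE letters. Each stretch below runs 5′ to 3′ along the gene's strand up to the base before the first start given by RefSeq or by the count table, which shortens Ifit1 to 232 bases, with the ISRE letters, on either strand, in capitals.
Ifit1, chr19:34640639-34640870, plus strand: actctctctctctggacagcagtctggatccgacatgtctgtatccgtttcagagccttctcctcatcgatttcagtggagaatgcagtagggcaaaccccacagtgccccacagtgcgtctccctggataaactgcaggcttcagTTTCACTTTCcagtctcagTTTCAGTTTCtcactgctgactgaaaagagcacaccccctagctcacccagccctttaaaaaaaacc
Ifit3, chr19:34583279-34583528, plus strand: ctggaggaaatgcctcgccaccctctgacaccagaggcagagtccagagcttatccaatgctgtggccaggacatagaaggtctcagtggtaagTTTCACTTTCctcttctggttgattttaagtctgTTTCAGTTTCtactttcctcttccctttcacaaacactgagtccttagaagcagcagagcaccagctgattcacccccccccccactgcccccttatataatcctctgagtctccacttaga
Ifit3b, chr19:34607707-34607956, plus strand: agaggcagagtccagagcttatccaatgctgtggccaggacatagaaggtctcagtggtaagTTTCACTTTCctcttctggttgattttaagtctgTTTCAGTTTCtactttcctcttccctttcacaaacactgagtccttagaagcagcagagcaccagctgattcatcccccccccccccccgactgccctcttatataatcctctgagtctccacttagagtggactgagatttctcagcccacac
Isg15, chr4:156200819-156201068, minus strand: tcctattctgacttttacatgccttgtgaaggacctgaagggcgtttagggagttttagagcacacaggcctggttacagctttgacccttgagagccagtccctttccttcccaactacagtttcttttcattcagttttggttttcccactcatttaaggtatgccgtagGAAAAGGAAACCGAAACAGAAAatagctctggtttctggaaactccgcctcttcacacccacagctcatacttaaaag
Oas1a, chr5:120907526-120907775, minus strand: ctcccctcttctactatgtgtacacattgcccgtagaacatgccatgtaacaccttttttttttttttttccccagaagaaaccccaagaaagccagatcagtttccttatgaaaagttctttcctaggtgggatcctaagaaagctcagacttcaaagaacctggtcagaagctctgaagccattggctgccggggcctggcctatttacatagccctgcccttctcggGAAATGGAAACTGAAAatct
Oas1g, chr5:120887614-120887863, minus strand: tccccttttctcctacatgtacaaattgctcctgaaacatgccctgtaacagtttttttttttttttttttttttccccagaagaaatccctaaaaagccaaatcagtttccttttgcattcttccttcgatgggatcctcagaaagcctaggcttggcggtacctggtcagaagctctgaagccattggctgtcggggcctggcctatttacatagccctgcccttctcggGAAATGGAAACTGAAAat
In a global alignment, the Ifit3 and Ifit3b windows had identical bases in 259 of 340 columns, or 76.2%. Those of Oas1a and Oas1g had them in 261 of 306 columns, or 85.3%. Columns with a gap were counted in both totals, so these shares understate the identity of aligned bases and do not rank the 2 pairs. The Ifit3 and Ifit3b windows were also shifted against each other, with the first ISRE letters at -156 and -188 bases from the start. These matches describe letters and not measured binding.

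Interferon ligands start the pathway, and their transcripts were almost absent. Of 21 interferon genes, 20 were too low to test, with at most 8 counts in any library, and 11 had 0 counts in every library, which allows up to 0.136 to 0.173 CPM. Ifnk, the interferon known from keratinocytes, was the one tested. It had 3.86, 8.75, 10.2, 4.07 and 2.89 CPM in wt/wt replicates 1 to 5, and 1.16, 5.39, 9.61 and 2.98 CPM in ko/ko replicates 1 to 4. The groups overlapped widely (log2 fold change -0.31, SE 0.56, edgeR adjusted p = 0.824).

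Receptors and kinases of the pathway had more negative than positive values. Of 10 genes, all tested, 3 were positive and 7 negative (median -0.16), with 0 called and 2 lower at an unadjusted p under 0.05. That is 30% positive and 20% lower, against 47.4% and 6.42% of all tested genes. The 2 lower genes were the subunits of the type I interferon receptor. Ifnar1 had 79.0, 82.8, 99.3, 110 and 122 CPM in wt/wt and 47.1, 87.04, 76.6 and 67.1 CPM in ko/ko (log2 fold change -0.51, SE 0.20, edgeR adjusted p = 0.269). Ifnar2 had a wt/wt mean of 54.1 ± 5.38 CPM (SD, n = 5) and a ko/ko mean of 43.7 ± 4.58 CPM (SD, n = 4) (log2 fold change -0.31, SE 0.13, edgeR adjusted p = 0.307). For both receptors the highest ko/ko library passed the lowest wt/wt library, so the groups overlapped.

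Among the 4 transcription factors 3 values were positive and 1 negative (median 0.11), with 0 called. Irf1, a factor induced by interferons and by other stimuli, was the most abundant of them. It had 1115, 1131, 1419, 1601 and 1892 CPM in wt/wt and 1055, 1238, 1339 and 1188 CPM in ko/ko (log2 fold change -0.25, SE 0.19, edgeR adjusted p = 0.548). The ko/ko values lay within the lower part of the wt/wt range, save replicate 1, just below it. Irf9, the DNA-binding partner of STAT2, had 107, 81.4, 75.4, 74.3 and 82.3 CPM in wt/wt and 120, 95.7, 98.2 and 89.6 CPM in ko/ko. All ko/ko libraries lay above wt/wt replicates 2 to 5, and wt/wt replicate 1 reached into the ko/ko range (log2 fold change 0.26, SE 0.15, edgeR adjusted p = 0.433). Its exons overlap those of Rnf31 on the same strand, so its counts are uncertain. Stat2 spanned 34.0 to 90.5 CPM in wt/wt and 39.2 to 90.6 CPM in ko/ko, with replicate 1 highest in each genotype. Irf7, which drives interferon genes themselves, averaged 9.08 ± 2.30 CPM (SD, n = 5) and 10.2 ± 3.20 CPM (SD, n = 4). It overlaps Phrf1 on the other strand.

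Of 6 members that sense viral nucleic acid or act directly on the sensors, 3 were positive and 3 negative (median 0.02), with 0 called and Trim25 at the smallest p. TRIM25 is a ubiquitin ligase described as an activator of the RNA sensor RIG-I. Its gene (ENSMUSG00000000275, mm10 chromosome 11, 88999376 to 89020293, plus strand) had 22.6, 17.0, 16.9, 13.7 and 13.1 CPM in wt/wt and 43.9, 25.2, 34.8 and 21.7 CPM in ko/ko. The ko/ko replicates 1 to 3 lay above every wt/wt value, while replicate 4 lay just under wt/wt replicate 1. The log2 fold change was 0.91 (SE 0.23, edgeR unadjusted p = 0.00231, adjusted p = 0.152). In 20 other settings it ran from 0.71 to 1.05 and was called in 2.

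The other 5 members of this group had log2 fold changes from -0.39 to 0.62. Ddx58, which encodes RIG-I and is also named Rigi, averaged 22.5 ± 4.41 CPM (SD, n = 5) and 24.2 ± 4.97 CPM (SD, n = 4). Ifih1, which encodes the long-RNA sensor MDA5, had 14.95, 22.3, 20.5, 22.9 and 24.7 CPM in wt/wt and 11.9, 18.8, 17.3 and 16.4 CPM in ko/ko, the most negative log2 fold change of the tested members (-0.39, SE 0.19, edgeR adjusted p = 0.371). Eif2ak2, the RNA-activated kinase PKR, had -0.27 (SE 0.23) and Dhx58, the related helicase LGP2, had -0.06 (SE 0.30). Dhx58 overlaps a far more abundant antisense gene, Dhx58os, and its counts are uncertain. Zbp1, a sensor of Z-form nucleic acid, stayed at 0.537 to 0.673 CPM in wt/wt and reached 0.937 and 1.72 CPM in ko/ko replicates 3 and 4, with 0.578 and 0.498 CPM in replicates 1 and 2 (edgeR adjusted p = 0.538).

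Adaptors and kinases that lead from sensing to interferon induction were mostly on the negative side. Of 14 such genes 12 were tested, with 3 positive and 9 negative values (median -0.18) and 0 called. That is 25% positive, against 47.4% of all tested genes. At an unadjusted p under 0.05, 1 was lower, or 8.33%, near the 6.42% of all tested genes. The lower gene, Tbk1, the kinase that phosphorylates IRF3, had a wt/wt mean of 102 ± 24.5 CPM (SD, n = 5) and a ko/ko mean of 73.6 ± 9.29 CPM (SD, n = 4) (log2 fold change -0.47, SE 0.18, edgeR adjusted p = 0.263). Of 13 negative regulators of the pathway, 5 were positive and 8 negative (median -0.11), with 0 called. That is 38.5% positive, against 47.4% of all tested genes. Socs3, an inhibitor of JAK signalling, averaged 1441 ± 361 CPM (SD, n = 5) and 998 ± 108 CPM (SD, n = 4). Its log2 fold change was -0.53 (SE 0.20, edgeR adjusted p = 0.248). Irf2bp2, a corepressor that binds IRF2, averaged 27.6 ± 4.76 CPM (SD, n = 5) and 42.4 ± 7.86 CPM (SD, n = 4), with no overlap between groups (0.62, SE 0.18, edgeR adjusted p = 0.174). Groups did not overlap for 6.25% of all tested genes (3.51% higher and 2.74% lower in ko/ko).

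In the oligoadenylate synthetase family, some members make the messenger that activates RNase L. The 3 that could be tested, Oas1b, Oasl2 and Oasl1, had higher means in ko/ko. Of those too low to test, Oas1a and Oas1g had higher and Oas2 and Oas3 lower means in ko/ko. Of 7 members of this family 3 passed the filter, all 3 positive (median 0.92), and 0 were called. Oas1b (ENSMUSG00000029605, mm10 chromosome 5, 120812635 to 120824163, plus strand) had 1.78, 1.63, 1.32, 1.42 and 1.65 CPM in wt/wt and 3.76, 2.49, 2.34 and 2.68 CPM in ko/ko. It was the 1 tested member whose groups did not overlap, 2.94% of members against 6.25% of all tested genes (log2 fold change 0.85, SE 0.30, edgeR unadjusted p = 0.0148, adjusted p = 0.229). Its values rest on 27 to 65 counts per library. Oasl2, an OAS-like protein, had 2.03, 5.29, 4.005, 3.86 and 6.98 CPM in wt/wt and 8.79, 11.4, 6.42 and 6.93 CPM in ko/ko. The lower 2 ko/ko libraries fell under wt/wt replicate 5 (0.92, SE 0.34, edgeR adjusted p = 0.245). Oasl1, at no more than 1.27 CPM in any library, had 0.98 (SE 0.73, edgeR adjusted p = 0.542).

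Oas1a, one of the copies whose upstream sequence is printed above, was below the filter but uneven between genotypes. It had 0, 1, 1, 0 and 2 counts in wt/wt and 14, 18, 5 and 7 counts in ko/ko, so its groups did not overlap. Among genes removed by the filter with 10 or more counts in all, 1.90% had groups apart in this direction. Pooled over libraries, the ko/ko level was 14.0 times the wt/wt level (exact 95% interval 5.09 to 53.6), and this interval covers counting error and no spread between animals. Fitted without the filter, Oas1a had an unadjusted p of 0.00159 and an adjusted p of 0.184 by edgeR's test, which then called 0.0695% of all genes (0.0645% higher and 0.00496% lower). Oas1g, its close copy nearby, had 0 counts in all wt/wt libraries and 0, 8, 0 and 3 in ko/ko, at least 4.66-fold higher over the groups when 3 counts are taken as the wt/wt floor. Counting error in the ko/ko libraries lowers this bound, since the exact 95% interval of the pooled ratio starts at 3.19. The 2 genes cannot be separated cleanly: 57.6% of the 50-base words in Oas1a transcripts also occur in Oas1g transcripts. Oas2 and Oas3 were as low, with 31 and 24 counts over wt/wt and 13 and 15 over ko/ko, and did not have this pattern (pooled ratios 0.533 and 0.795).

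**Figure D2:**
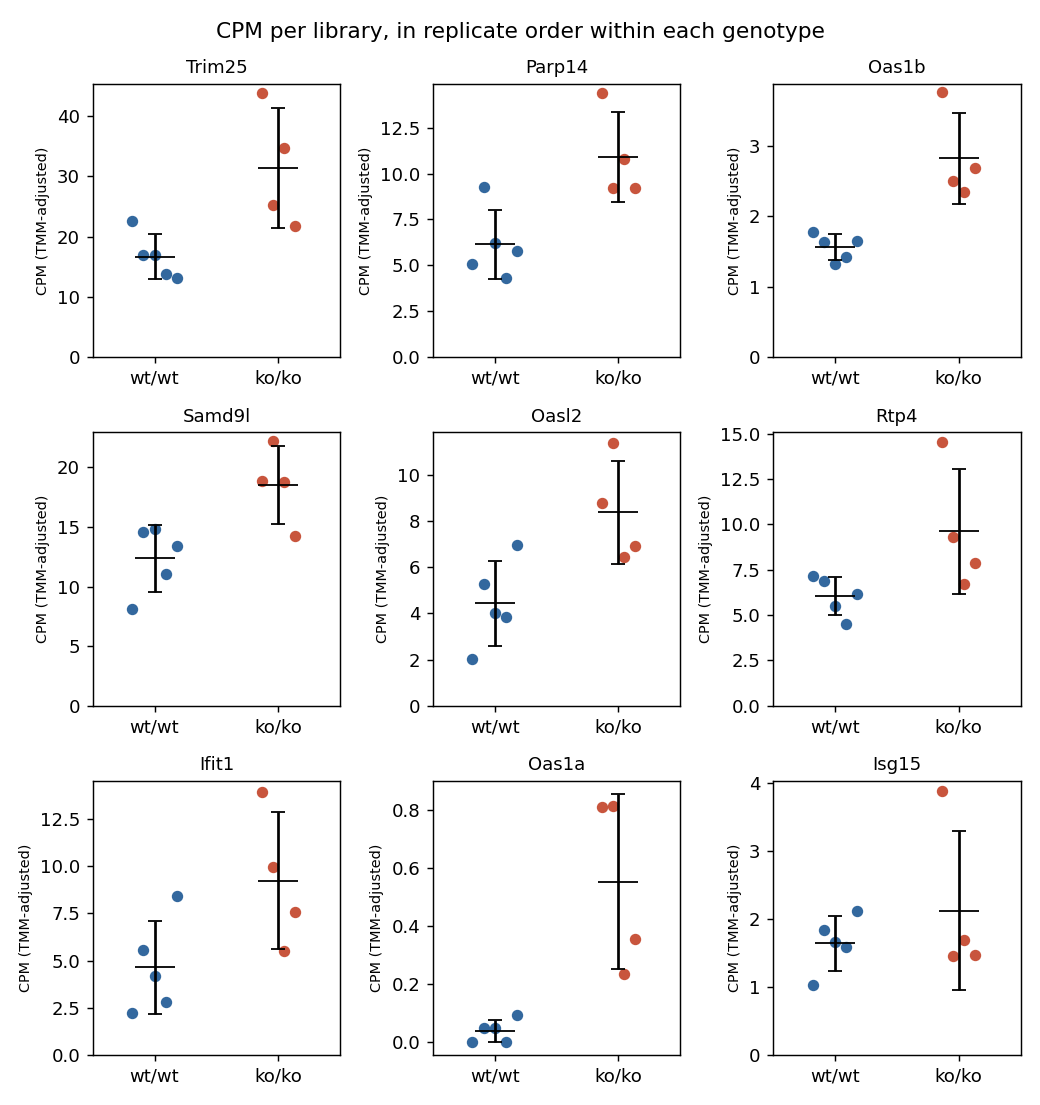
CPM per library (y axis, points) for the 7 members with an unadjusted p under 0.05, for Oas1a and for Isg15, in wt/wt (blue, n = 5) and ko/ko (red, n = 4), with the mean and SD in black. Groups are apart for Oas1b, at 1.32 to 1.78 against 2.34 to 3.76 CPM, and for Oas1a, while the Isg15 mean in ko/ko rests on replicate 1 at 3.87 CPM.

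The Ifit genes encode proteins that bind foreign RNA ends, and the 4 in this set lie in 1 cluster on chromosome 19, in the order Ifit2, Ifit3, Ifit3b and Ifit1. Values were positive for 3 and negative for 1 (median 0.26), with 0 called. Ifit1 had 2.19, 5.57, 4.20, 2.80 and 8.40 CPM in wt/wt and 13.9, 9.96, 5.48 and 7.59 CPM in ko/ko (log2 fold change 0.99, SE 0.40, edgeR adjusted p = 0.279). Ifit2 had 6.97, 9.85, 22.4, 19.4 and 17.6 CPM in wt/wt and 1.21, 25.7, 11.3 and 9.66 CPM in ko/ko (-0.35, SE 0.61, edgeR adjusted p = 0.820). In ko/ko replicate 1 Ifit1 was the highest and Ifit2 the lowest of all 9 libraries, while Ifit3 and Ifit3b, which lie between them, were at neither extreme (6.71 and 3.24 CPM). Ifit3 averaged 4.14 ± 2.69 CPM (SD, n = 5) and 4.72 ± 1.63 CPM (SD, n = 4). Ifit3b averaged 2.53 ± 1.86 CPM (SD, n = 5) and 3.19 ± 0.724 CPM (SD, n = 4). These last 2 share 51.2% of the 50-base words of Ifit3 transcripts, so reads may have been split between them. In wt/wt replicate 1, Ifit1, Ifit3 and Ifit3b were all at their lowest, Ifit3b with 3 counts.

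Isg15 and the genes placed with it gave mixed values, 3 positive and 2 negative (median 0.21), with 0 called. ISG15 is a ubiquitin-like modifier, and USP18 removes it from proteins and dampens the receptor. Isg15 had 1.02, 1.83, 1.66, 1.58 and 2.11 CPM in wt/wt and 3.87, 1.45, 1.69 and 1.47 CPM in ko/ko. A single ko/ko library, replicate 1, stood above all others, and without it the log2 fold change went from 0.36 to -0.10 (edgeR adjusted p = 0.697 and 0.953). Usp18 averaged 5.18 ± 1.52 CPM (SD, n = 5) and 6.02 ± 1.16 CPM (SD, n = 4).

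Parp9, Dtx3l and Parp14, an ADP-ribosyltransferase, its ubiquitin ligase partner and a related ADP-ribosyltransferase, lie together on chromosome 16. Parp14 (ENSMUSG00000034422, mm10 chromosome 16, 35832874 to 35871544, minus strand) had 5.09, 9.27, 6.20, 4.32 and 5.78 CPM in wt/wt and 14.4, 9.24, 10.8 and 9.20 CPM in ko/ko. All ko/ko libraries lay above 4 of the wt/wt libraries, and wt/wt replicate 2 matched the lower ko/ko values (log2 fold change 0.83, SE 0.26, edgeR unadjusted p = 0.00774, adjusted p = 0.196). Parp9 had 15.7, 19.5, 20.5, 25.3 and 24.9 CPM in wt/wt and 5.43, 24.7, 22.4 and 20.3 CPM in ko/ko (-0.21, SE 0.35, edgeR adjusted p = 0.803). Outside ko/ko replicate 1 the Parp9 values of both genotypes were in 1 range. Dtx3l spanned 2.50 to 7.30 CPM in wt/wt and 2.20 to 7.61 CPM in ko/ko, and its exons overlap Parp9 on the other strand.

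Of the Mx, viperin and nucleotide group, with Samd9l, all 4 tested members were positive (median 0.53), with 0 called. Samd9l, an interferon-induced inhibitor of translation, had 8.14, 14.6, 14.8, 11.03 and 13.4 CPM in wt/wt and 18.9, 22.2, 18.8 and 14.2 CPM in ko/ko. The ko/ko replicates 1 to 3 lay above every wt/wt library (log2 fold change 0.58, SE 0.21, edgeR adjusted p = 0.244). Rsad2, which encodes viperin, averaged 2.86 ± 0.805 CPM (SD, n = 5) and 4.10 ± 2.10 CPM (SD, n = 4), and Cmpk2, a nearby gene for a mitochondrial nucleotide kinase, 5.55 ± 0.669 and 6.10 ± 2.21 CPM. Of the Mx GTPases, Mx2 averaged 3.10 ± 0.945 CPM (SD, n = 5) and 4.55 ± 1.86 CPM (SD, n = 4). Mx1, at 0 to 18 counts per library, was not tested.

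Membrane and other induced genes, 8 in all, included the abundant Ifitm3 and Ifi27, and 0 of them were called. Ifitm3, which blocks virus entry from endosomes, had 305, 335, 413, 410 and 365 CPM in wt/wt and 411, 486, 363 and 462 CPM in ko/ko, with overlapping groups (log2 fold change 0.24, SE 0.15, edgeR adjusted p = 0.476). Ifi27 had 98.1, 83.4, 123, 120 and 103 CPM in wt/wt and 106, 103, 98.7 and 127 CPM in ko/ko, with overlapping groups (0.04, SE 0.15, edgeR adjusted p = 0.921). Bst2, the tether that holds budding virus, averaged 4.96 ± 1.36 CPM (SD, n = 5) and 4.05 ± 0.663 CPM (SD, n = 4). Rtp4, a chaperone of G-protein-coupled receptors that is induced by interferon, had 7.17, 6.87, 5.52, 4.52 and 6.15 CPM in wt/wt and 14.6, 9.28, 6.70 and 7.89 CPM in ko/ko (0.67, SE 0.26, edgeR adjusted p = 0.268). Its exons overlap those of Gm45338 on the same strand. Ifi35 (0.30, SE 0.19), Ifi44 (0.38, SE 0.77), Trim30a (-0.10, SE 0.79) and Xaf1 (0.08, SE 0.23) had edgeR adjusted p from 0.471 to 0.963. Xaf1, an antagonist of the apoptosis inhibitor XIAP, had 15.3, 12.2, 12.0, 11.4 and 11.5 CPM in wt/wt and 11.9, 20.2, 9.89 and 10.7 CPM in ko/ko, highest in ko/ko replicate 2. Trim30a had 0 counts in ko/ko replicate 1 and 14 to 60 counts elsewhere.

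The members did not move as a single block across libraries. In ko/ko replicate 1, 12 of the 34 tested members were at their highest and 9 at their lowest value of the 9 libraries. That is 35.3% and 26.5% of members, while this library was also extreme over all tested genes, highest for 23.0% and lowest for 23.0%. Highest there were Ifit1, Isg15, Usp18, Parp14, Oas1b, Rsad2, Stat2, Irf7, Irf9, Trim25, Ifi35 and Rtp4, and lowest were Ifit2, Parp9, Dtx3l, Cmpk2, Irf1, Ifih1, Dhx58, Eif2ak2 and Trim30a. In ko/ko replicate 2, 11 members (32.4%) were highest and 1 (2.94%) lowest, against 11.1% and 11.4% of all tested genes. In wt/wt replicate 1, 8 members (23.5%) were lowest and 1 (2.94%) highest, against 13.5% and 14.8% of all tested genes.

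**Figure D3:**
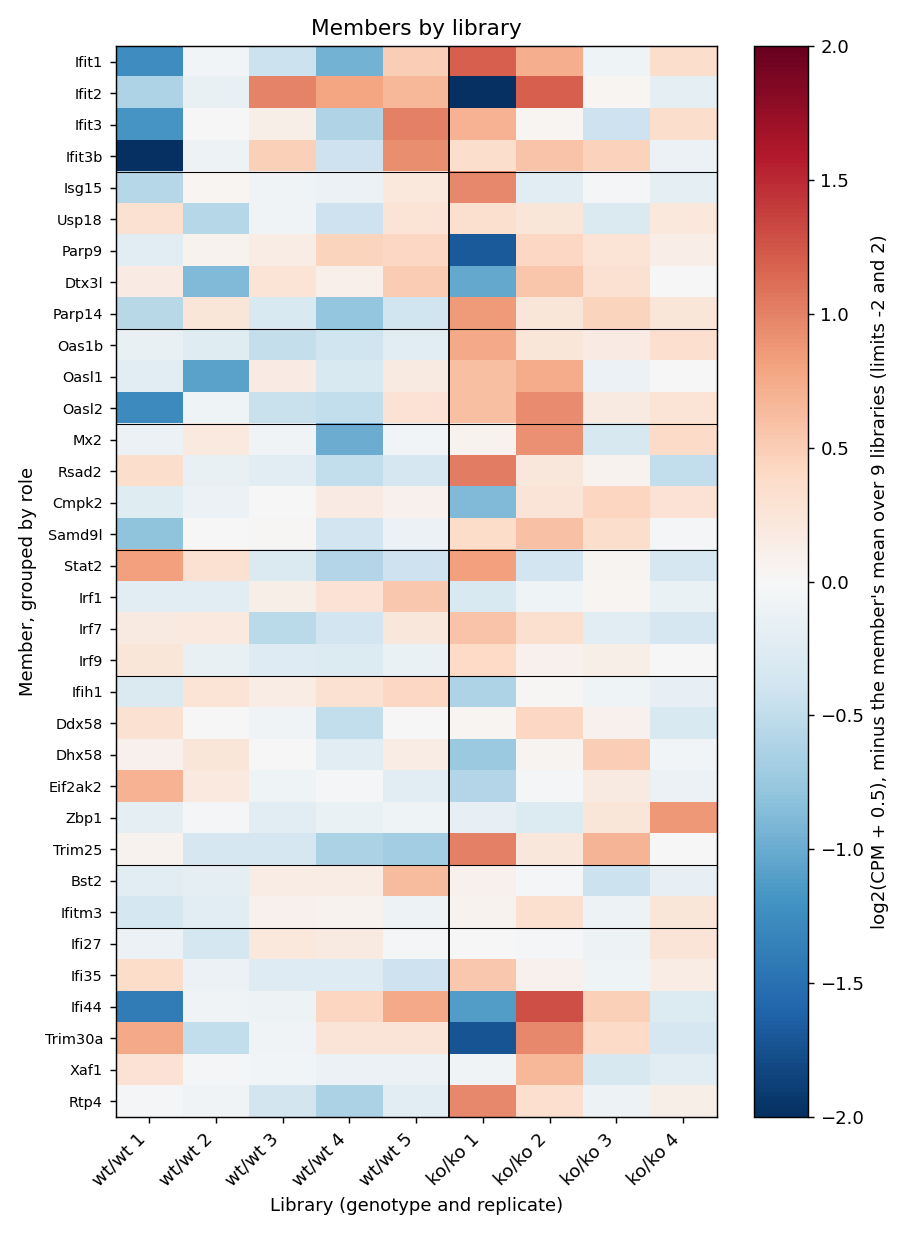
Colour gives log2(CPM + 0.5) of each tested member (rows, by role) minus its mean over the 9 libraries (columns), with limits at -2 and 2. In ko/ko replicate 1, 12 members are at their highest and 9 at their lowest, among them Ifit1 and Ifit2 in opposite colours.

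Members of 1 gene cluster took opposite directions in that library, in 3 places chosen after their values were seen. The ratio of Ifit1 to Ifit2 CPM was 11.5 in ko/ko replicate 1 and 0.144 to 0.785 in the 8 other libraries. Parp14 over Parp9 was 2.65 there and 0.171 to 0.481 elsewhere. Rsad2 over Cmpk2 was 2.49 there and 0.304 to 0.902 elsewhere. Dtx3l and Parp9, which overlap, were both low, with a ratio of 0.404 there and 0.128 to 0.364 elsewhere. This library had the lowest total, 15601859 counts, and 6.30% of its counts were mitochondrial, while the rest of ko/ko had 1.81% to 2.01% and wt/wt 2.77% to 7.55%. The part of these measures in these ratios was not tested.

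**Figure D4:**
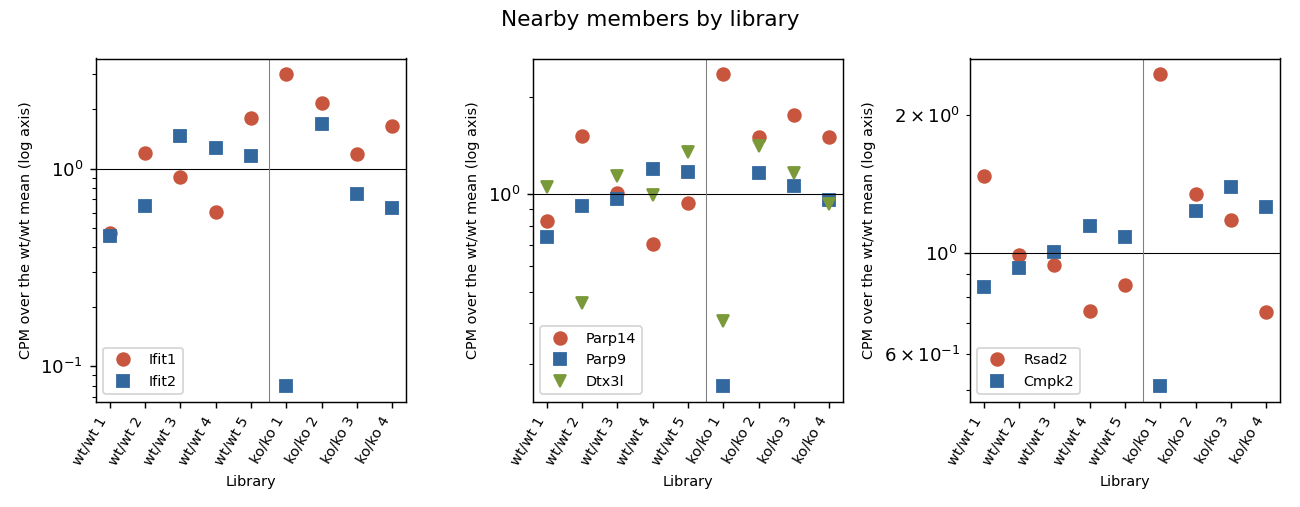
CPM of members that lie near each other divided by their wt/wt mean (log axis) in each of the 9 libraries, for Ifit1 and Ifit2, for Parp14, Parp9 and Dtx3l, and for Rsad2 and Cmpk2. In ko/ko replicate 1, Ifit1, Parp14 and Rsad2 are above and Ifit2, Parp9, Dtx3l and Cmpk2 below 1.

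Markers of leukocytes were also higher in some ko/ko libraries. All 12 tested of 15 myeloid and Langerhans cell markers had positive log2 fold changes (median 2.35), with 0 called. At an unadjusted p under 0.05, 9 were higher (75%), against 8.86% of all tested genes. Several were near the floor in wt/wt, such as Laptm5 and Adgre1, with means of 0.279 and 0.293 CPM. Lyz2, the most abundant on average, had a wt/wt mean of 51.9 CPM and a log2 fold change of 0.41. Ptprc was the 1 tested marker of this list whose groups did not overlap, higher in ko/ko (log2 fold change 2.72, SE 0.80, edgeR adjusted p = 0.184). That is 8.33% of the tested markers, against 3.51% of all tested genes apart in this direction. The summed level of the 15 markers was 43.9 to 98.1 CPM in wt/wt and 186, 189, 111 and 58.8 CPM in ko/ko replicates 1 to 4 (exact permutation p = 0.0952, adjusted p = 0.222 over 8 marker lists, two-sided). The defining Langerhans gene Cd207 was at 0 in 3 wt/wt libraries and in ko/ko replicate 2, and reached 3.41 CPM in ko/ko replicate 1. Mast cell markers, with 5 tested of 6 and all 5 positive, summed to 0.625 to 24.4 CPM in wt/wt and 63.4, 49.8, 16.5 and 2.48 CPM in ko/ko (exact permutation p = 0.111, adjusted p = 0.222). Of 8 T and NK cell markers 2 were tested, Cd3e (log2 fold change 1.39, SE 0.63) and Lck, which hardly differed (0.002, SE 0.52). The 8 markers summed to 1.88 to 10.2 CPM in wt/wt and 6.37 to 10.5 CPM in ko/ko (exact permutation p = 0.0873, adjusted p = 0.222). Plasmacytoid dendritic cells are known as strong interferon producers, and 1 of 3 tested of their 5 markers was positive, with sums of 2.64 to 6.36 CPM in wt/wt and 4.20 to 6.94 CPM in ko/ko (adjusted exact permutation p = 0.646). Their defining gene Siglech was at 0 in 3 wt/wt libraries, at 0.763 CPM or less in the other wt/wt libraries, and at 3.58 CPM in ko/ko replicate 1, with 0.136 to 0.202 CPM in the rest of ko/ko.

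Lymphatic endothelial markers went the other way. All 5 were negative (median -1.61), with 0 called. At an unadjusted p under 0.05 all 5 were lower, against 6.42% of all tested genes. These 5 markers summed to 250 to 780 CPM in wt/wt and 122 to 194 CPM in ko/ko, with no overlap (exact permutation p = 0.0238, adjusted p = 0.190). Blood endothelial (208 to 440 against 203 to 333 CPM), fibroblast (13869 to 32777 against 17753 to 33480 CPM) and basal keratinocyte sums (1356 to 2934 against 1564 to 2461 CPM) overlapped between genotypes, with adjusted p of 0.521, 0.698 and 0.671. Of 8 blood endothelial markers, 3 were lower and 1 higher at an unadjusted p under 0.05, with 0 called. Of 7 basal keratinocyte markers, 6 were positive, with 0 called and 1 at an unadjusted p under 0.05. That 1 was Itga6, the gene of the sort marker CD49f, with a wt/wt mean of 53.4 ± 9.04 CPM (SD, n = 5) and a ko/ko mean of 83.0 ± 14.6 CPM (SD, n = 4). Its groups overlapped (log2 fold change 0.64, SE 0.17, edgeR adjusted p = 0.157). The smallest p this permutation test allows is 0.00794. Without ko/ko replicate 1, the library highest in mast cell markers, members with an unadjusted p under 0.05 numbered 5 instead of 7, and the median of all 34 tested members was 0.17. This drop was not particular to that library. Such members numbered 4 without ko/ko replicate 2, highest in myeloid markers, and 5 without wt/wt replicate 3 or 4. They numbered 7 or more without any other single library. The part of these cell types in the members' values was not tested.

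**Figure D5:**
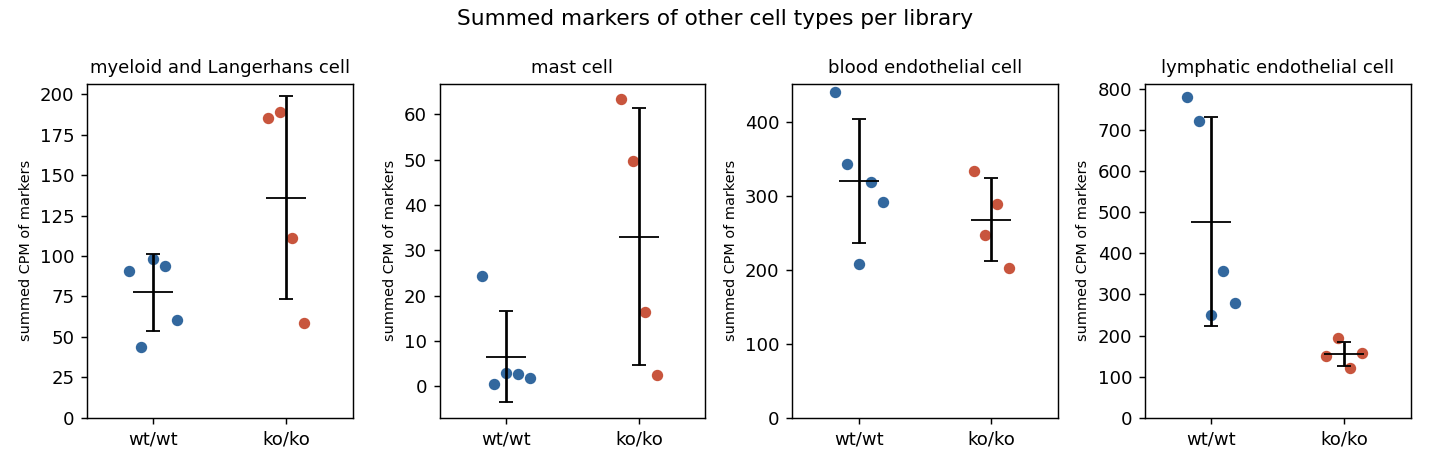
Summed CPM of marker genes per library (points) for 4 other cell types in wt/wt (blue, n = 5) and ko/ko (red, n = 4), with mean and SD in black. Myeloid sums are 186 and 189 CPM in ko/ko replicates 1 and 2 but 58.8 CPM in replicate 4, and lymphatic sums are apart at 250 to 780 against 122 to 194 CPM.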

How the data were processed

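The authors deposited 1 table of raw counts by gene for the 9 sorted samples. GSNAP, featureCounts 1.6.2 and mm10 are named in the submitters' processing notes, and the table's name gives Ensembl release 87. The sources used here give no strand or multi-mapping settings, so overlapping and near-identical genes are uncertain. Exon length per gene is another column the authors deposited. Per the labels' protocols, polyadenylated RNA was amplified over 13 cycles before library preparation. No molecular identifiers are named, and intervals or floors cover no more than counting error.

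Of 49763 rows, 92 spike-in rows were left out, and symbols came from GENCODE M21 by identifier (49326 matched). edgeR 4.0.16 (R 4.3.3) was run with filterByExpr, TMM and its quasi-likelihood test (glmQLFit, robust=TRUE, two-sided), and p-values were adjusted by Benjamini-Hochberg over 18435 genes, with calls at 0.05. Dividing the size of the log2 fold change by the root of F gave its standard error. The script was tested on simulated data. Replicates were numbered in order of accession, which pairs no samples. Titles give each sample its own identifier, but no label states separate animals, so p-values measure the spread between these samples. Each genotype's libraries carry consecutive identifiers of their own, so processing order and genotype cannot be told apart.

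Alternatives were other scaling (RLE, upper quartile, library totals), a filter left out or set at 1 CPM in 4 libraries, DESeq2 1.42.0, limma 3.58.1 voom with quality weights, robust=FALSE, leaving out mitochondrial genes with the 20 most abundant, removal of a loess trend (span 0.3) on exon length, and left-out libraries. Members and lists were chosen with earlier results of these data known. Named with values in every library are members with an unadjusted p under 0.05 or groups apart, those with 1 outlying library, and the highest per exon length in each role. Pathway genes are named at an unadjusted p under 0.05, plus the receptor genes and 1 further gene that is not reported here. Ifih1 and Ifnk fall outside this rule and were chosen after their values were seen.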

Additional observations from a re-analysis of the deposited data

Results flagged for a closer look

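Each of 86 groups of 4 or 5 libraries was examined for 1 library far from the rest, and 5 had one, where chance alone gives about 1 in 20 groups, or 4.3. Isg15 stood out in ko/ko replicate 1 at 3.87 CPM, while replicates 2 to 4 had 1.45 to 1.69 CPM. Irf9 stood out in wt/wt replicate 1 at 107 CPM, while replicates 2 to 5 had 74.3 to 82.3 CPM. Xaf1 was also high in that library, at 15.3 CPM with 11.4 to 12.2 CPM in the rest of the group. So were summed mast cell markers, at 24.4 CPM with 0.625 to 3.03 CPM in the rest. Summed basal keratinocyte markers reached 2934 CPM in wt/wt replicate 2, and 1356 to 1688 CPM in the rest of wt/wt.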

How the results depend on the processing

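No paired analysis was possible because the labels carry no replicate numbers shared between genotypes. Over the members and 20 settings, 635 values kept their direction and side of the threshold, 3 gained a call and 40 changed sign, and the cause was not tested. The members' median stayed positive, at 0.17 to 0.30 with 1 library left out. Library totals alone moved the median of all genes from -0.03 to 0.08 and that of members to 0.33. With no low-count filter the median of all genes rose to 0.14 and that of members fell to 0.17, so the 2 were close. Genes called over the whole table numbered 1 as reported, 4 with library totals, 28 with no filter, 630 with DESeq2, 1802 with voom, 7 without the 3 Gm10800-rich libraries, and 0 to 12 with 1 library left out (12 without ko/ko replicate 4). Members called numbered 0 as reported, 1 with DESeq2 and 2 with voom. Members with an unadjusted p under 0.05 numbered 11 with voom (9 higher) and 3 without the 3 libraries (3 higher). With 1 library left out they numbered 4 to 9 (4 to 8 higher), 4 without ko/ko replicate 2. The share of all genes at this unadjusted p was not computed for these settings, so the counts lack that reference. Members with groups apart numbered 4 with library totals (5.98% of all genes), 2 with no filter (3.53%), 2 with the length trend removed (6.22%) and 10 without the 3 libraries, where 23.6% of all genes were apart. With 1 library left out they numbered 1 to 5 (6.84% to 12% of all genes), 5 of them and 12% without wt/wt replicate 1. Signs changed with library totals for Dtx3l (0.0787) and Dhx58 (0.0435), and with no filter for Ifi27 (-0.000695). With voom they changed for Ifit3 (-0.0266), Isg15 (-0.0513), Dhx58 (0.15), Eif2ak2 (0.0260), Ifi27 (-0.0464) and Xaf1 (-0.00507). Without the 3 libraries they changed for Ifit2 (0.0926), Ifit3 (-0.46), Isg15 (-0.20), Parp9 (0.0609), Dtx3l (0.38), Dhx58 (0.26), Eif2ak2 (0.11), Ifi27 (-0.0932) and Trim30a (0.89). With 1 library left out, log2 fold changes crossed 0 for Ifit2 (-1.04 to 0.0278), Ifit3 (-0.0303 to 0.63), Isg15 (-0.10 to 0.50), Parp9 (-0.39 to 0.0856), Dtx3l (-0.26 to 0.22), Stat2 (-0.28 to 0.34), Irf7 (-0.0235 to 0.30), Ddx58 (-0.0308 to 0.21), Dhx58 (-0.29 to 0.14), Ifi27 (-0.0458 to 0.10), Ifi44 (-0.36 to 0.73), Trim30a (-0.75 to 0.31) and Xaf1 (-0.21 to 0.19). The fibroblast marker sum in ko/ko minus wt/wt ran from -622 to 4620 CPM. Depth limits the members that were not tested, where 3 counts equal 0.136 to 0.173 CPM.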
